A study of Mus musculus with 9 samples.

Results

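The genes followed here were 5 connexins and 3 cadherins in cultured mouse cardiac fibroblasts in which the transcription factor Gata4 or Tbx20 had been knocked down. The members were chosen by name as the rows for Gja1, Gja4, Gjb2, Gjb5, Gjc1, Cdh2, Cdh11 and Cdh13, and all 8 were found among the 38924 genes of the table. The cells were primary cardiac fibroblasts of 8 to 10 week old mice on a C57BL/6 background that carry Cas9 and a green fluorescent protein, so cells of every group, control included, carried the nuclease. They were sorted as CD45-CD31-CD90+ after 3 days of culture, replated and transfected 6 days later with scrambled guides (control), 2 guides against Gata4 (Gata4 KD) or 2 guides against Tbx20 (Tbx20 KD). Each group had 3 libraries, called a, b and c, and the labels name no animal, culture or batch for them, so the p-values measure only the spread between these samples. RNA was taken from whole cultures, and the study's methods name no selection of transfected cells before collection.

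Connexins form gap junction channels, which let ions and small molecules pass directly from cell to cell, and cadherins are calcium-dependent adhesion proteins that tie the actin skeletons of neighbouring cells together through catenins. Fibroblasts of the heart are known to express Gja1 (connexin 43), the main ventricular connexin, and Gjc1 (connexin 45), and such channels can couple them to each other and to cardiomyocytes. Cdh2 (N-cadherin) and Cdh11 (OB-cadherin) are classical cadherins of mesenchymal cells, whereas Cdh13 (T-cadherin) is held in the membrane by a lipid anchor and has no cytoplasmic tail.

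Total counts were 31214828 to 41950397 per library. Gata4 was 162 ± 6.82 CPM (counts scaled to library size by TMM factors over all 9 libraries; SD, n = 3) in control and 55.4 ± 9.48 CPM in Gata4 KD, and Tbx20 was 1002 ± 278 CPM in control and 391 ± 61.8 CPM in Tbx20 KD, in both cases without overlap between the groups. Each target also differed in mean in the other knockdown. Gata4 was 189 ± 10.4 CPM in Tbx20 KD, above control without overlap (log2 fold change 0.23, adjusted p 0.9997 in edgeR). Tbx20 was 698 ± 199 CPM in Gata4 KD, overlapping with control (log2 fold change -0.52, adjusted p 0.636 in edgeR). The highest gene of a library took 0.722% to 1.11% of its counts in 8 libraries and 2.71% in Gata4 KD replicate a, where it was Gm42418. The 10 fibroblast markers all had counts and summed to 12320 to 13490 CPM in control, 9487 to 12530 CPM in Gata4 KD and 11940 to 13980 CPM in Tbx20 KD. Their median log2 fold change in Gata4 KD against control was -0.17, beside -0.02 over all genes tested, and edgeR called 0 of the 10, beside 0.38% of all genes. The defining Tcf21 had 168 to 200 CPM in control, 88.1 to 157 CPM in Gata4 KD and 184 to 250 CPM in Tbx20 KD. In the same order Col1a1 had 3967 to 4067, 2671 to 3704 and 3587 to 4328 CPM. Pdgfra went the other way, at 384 to 524, 512 to 668 and 405 to 484 CPM. The 12 cardiomyocyte markers summed to 8.92 to 31.6 CPM, nearly all of it Tnnt2 at 7.65 to 30.1 CPM, which edgeR called lower in Gata4 KD, whereas the defining Myh6, Myh7 and Actc1 did not exceed 0.0744 CPM in any library. Cdh1 (E-cadherin), the epithelial cadherin, did not exceed 0.223 CPM. The endothelial list summed to 41.7 to 62.3 CPM, the mural and smooth muscle list to 77.4 to 98.9 CPM, the leukocyte list to 25.1 to 54.6 CPM, the Schwann and glial list to 5.76 to 9.93 CPM and the surface epithelial list to 0.221 to 0.789 CPM. Of 9 endothelial markers tested, edgeR called Kdr alone between the knockdowns, beside 1.44% of all genes. Kdr was higher in Gata4 KD (5.06 to 6.19 CPM) than in Tbx20 KD (2.68 to 3.22 CPM), while the median log2 fold change of the 9 was -0.03.

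The 8 members spanned a wide range of levels in control cells. To compare genes, CPM was divided by the summed length of each gene's exons in kilobases. Cdh2 was highest at 79.1 ± 4.999 CPM per kilobase (SD, n = 3), 3.87 times the level of Cdh11 at 20.4 ± 4.15. Gjb5 at 7.87 ± 1.18 and Gja1 at 7.22 ± 0.648 CPM per kilobase overlapped and cannot be ordered. Gjc1 followed at 5.36 ± 0.331, Gja4 at 1.15 ± 0.162, Cdh13 at 0.219 ± 0.0294 and Gjb2 at 0.0239 ± 0.0130 CPM per kilobase, and apart from Gjb5 and Gja1 no neighbours in this order overlapped.

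The rank of Gja1 depended on the length used. Its annotated exons sum to 10257 bases, but its longest transcript has 3889, and with that length Gja1 stood at 19.0 ± 1.71 CPM per kilobase, clear of Gjb5 at 7.87. Gjb5 then overlapped with Gjc1 at 7.86 ± 0.485. Cdh2 at 132 and Cdh11 at 32.2 CPM per kilobase kept the first ranks, and Gja4, Cdh13 and Gjb2 the last.

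Within the whole connexin family of 20 genes, 19 had at least 1 count. In control, Gjb5 made up 20.6 ± 0.936% of the summed counts per kilobase (SD, n = 3), Gja1 19.3 ± 4.13%, Gjc1 14.2 ± 1.71% and Gja4 3.03 ± 0.505%. The Gja1 share was 16.3%, 24.0% and 17.6% in the control libraries, 23.2%, 25.6% and 22.4% in Gata4 KD and 21.7%, 21.5% and 20.7% in Tbx20 KD. The exact two-sided permutation test gave p = 0.3 for Gata4 KD against control, 0.4 for Tbx20 KD against control and 0.1 for Gata4 KD against Tbx20 KD, where 0.1 is the smallest p that 3 against 3 libraries allow. With the longest transcript as the length, the Gja1 share was 36.3% in control, 42.1% in Gata4 KD and 39.2% in Tbx20 KD. With no scaling by length, where long transcripts weigh more, Gja1 took 50.7%, 55.5% and 53.3% of the connexin counts.

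Among 23 cadherins, Cdh2 and Cdh11 together made up 94.9 ± 0.269% of the summed counts per kilobase in control (SD, n = 3), 94.5 ± 0.475% in Gata4 KD and 95.01 ± 0.494% in Tbx20 KD. The exact permutation test gave p = 0.3, 0.9 and 0.4 for Gata4 KD against control, Tbx20 KD against control and Gata4 KD against Tbx20 KD. Next in control were Cdh3 (P-cadherin) with 1.26% and Cdh19 with 1.12% of the cadherin level.

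**Figure D1:**
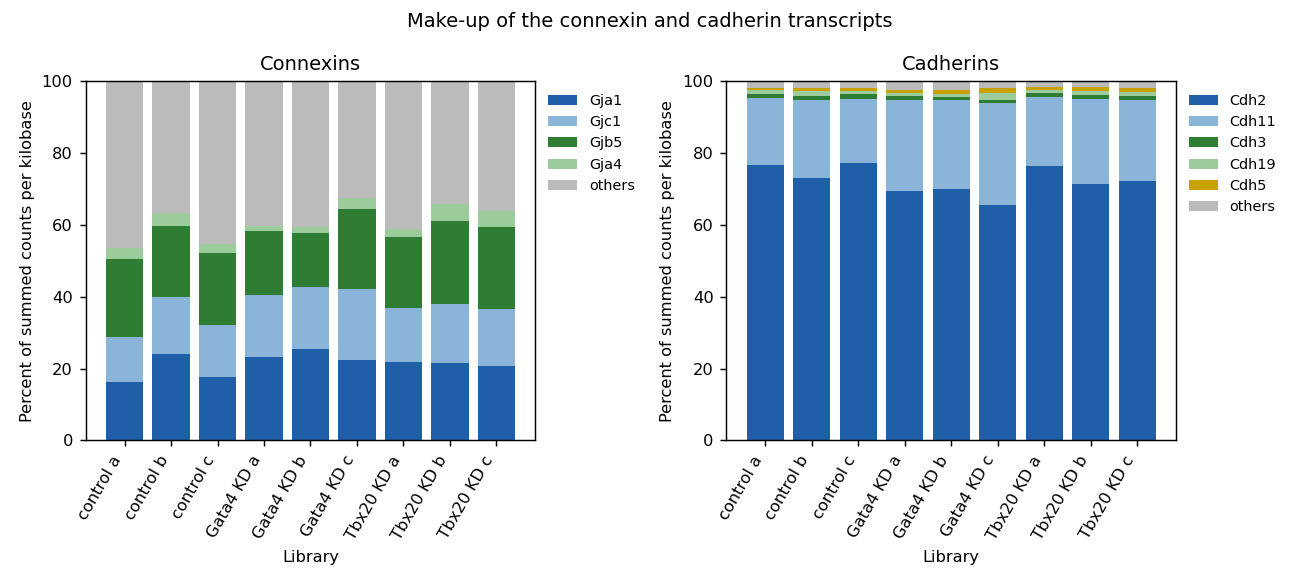
Share of each connexin (left) and cadherin (right) in its family's summed counts per kilobase of exon, in percent, for each of the 9 libraries. Grey stands for all other genes of the family. Gja1 made up 16.3% to 25.6% of the connexin level, whereas Cdh2 and Cdh11 together took at least 93.96% of the cadherin level in every library.

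Cdh2 carried the clearest difference among the members. It lies on the minus strand of chromosome 18 (GRCm38, 16588877 to 16809246), and had 623.7, 683.5 and 606.8 CPM in control replicates a, b and c. In Gata4 KD it had 479.3, 453.1 and 490.0 CPM, and in Tbx20 KD 649.3, 659.1 and 682.2 CPM. All 3 Gata4 KD libraries lay below all 6 others, while control and Tbx20 KD overlapped.

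Cdh2 was 28.6% lower in Gata4 KD than in Tbx20 KD, a log2 fold change of -0.49 (SE 0.05, 95% interval -0.61 to -0.36; with edgeR's quasi-likelihood fit over 14477 genes, adjusted p = 0.00912). Against control its log2 fold change in Gata4 KD was -0.43 (SE 0.08, 95% interval -0.62 to -0.24), and the adjusted p of 0.0992 missed the threshold of 0.05. Under DESeq2 this comparison gave an adjusted p of 0.00115, under the exact test with tagwise dispersions 0.0049 and in a fit of all 9 libraries 0.0197, and over all alternatives it ranged from 0.00115 to 0.527. In Tbx20 KD against control the log2 fold change of Cdh2 was 0.07 (SE 0.08, adjusted p 0.9997). Between the knockdowns Cdh2 no longer passed once library a of Gata4 KD (adjusted p 0.0859), library b of Tbx20 KD (0.0615) or library c of Tbx20 KD (0.0833) was left out.

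The summed levels of the cardiomyocyte list and the mesothelial list were lower in the same libraries as Cdh2. Of the 12 cardiomyocyte markers, 3 had 10 counts in any library, and their sum was 24.6 to 31.6 CPM in control, 8.92 to 10.1 CPM in Gata4 KD and 22.03 to 27.3 CPM in Tbx20 KD. Nearly all of it was Tnnt2 (cardiac troponin T), without which the ranges were 0.979 to 1.57, 0.857 to 1.27 and 0.877 to 1.94 CPM. The defining Myh6, Myh7 and Actc1 did not exceed 0.0744 CPM in any library. The paper reports several myocardial genes at low levels in cardiac fibroblasts, reduced in Gata4 KD. Of the 10 mesothelial and epicardial markers, 9 had 10 counts in a library, and they summed to 28.2 to 52.2 CPM in control, 11.4 to 20.4 CPM in Gata4 KD and 30.1 to 46.7 CPM in Tbx20 KD. Without Lrrn4 these ranges were 12.5 to 19.8, 9.07 to 18.3 and 10.3 to 14.9 CPM, and they overlapped, with Krt19 alone at 4.15 to 11.9 CPM in Gata4 KD. Of the 10 markers, 5 lay lower in every Gata4 KD library than in every control library (Upk3b, Lrrn4, Upk1b, Gpm6a and Krt8). Among all genes tested 7.62% did. Gpm6a did not exceed 1.12 CPM in any library and Krt8 did not exceed 0.118 CPM, so their separation rests on few counts. Of the other markers 1 lay higher (Bnc1) and 4 overlapped. Upk3b, a defining marker, was at 1.66 to 3.92 CPM in control, 0.605 to 1.11 CPM in Gata4 KD and 1.76 to 2.41 CPM in Tbx20 KD, while the other defining markers Msln and Wt1 overlapped between Gata4 KD and control, at no more than 0.326 and 1.14 CPM in any library. The median log2 fold change of the 8 mesothelial markers tested was -0.90 in Gata4 KD against control, where edgeR called Lrrn4 lower, and -0.29 against Tbx20 KD, where it called Lrrn4 and Gpm6a lower. The part of such cells in the Cdh2 difference was not tested, and in RNA from whole cultures fewer cells of a type and less RNA per cell cannot be told apart.

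**Figure D2:**
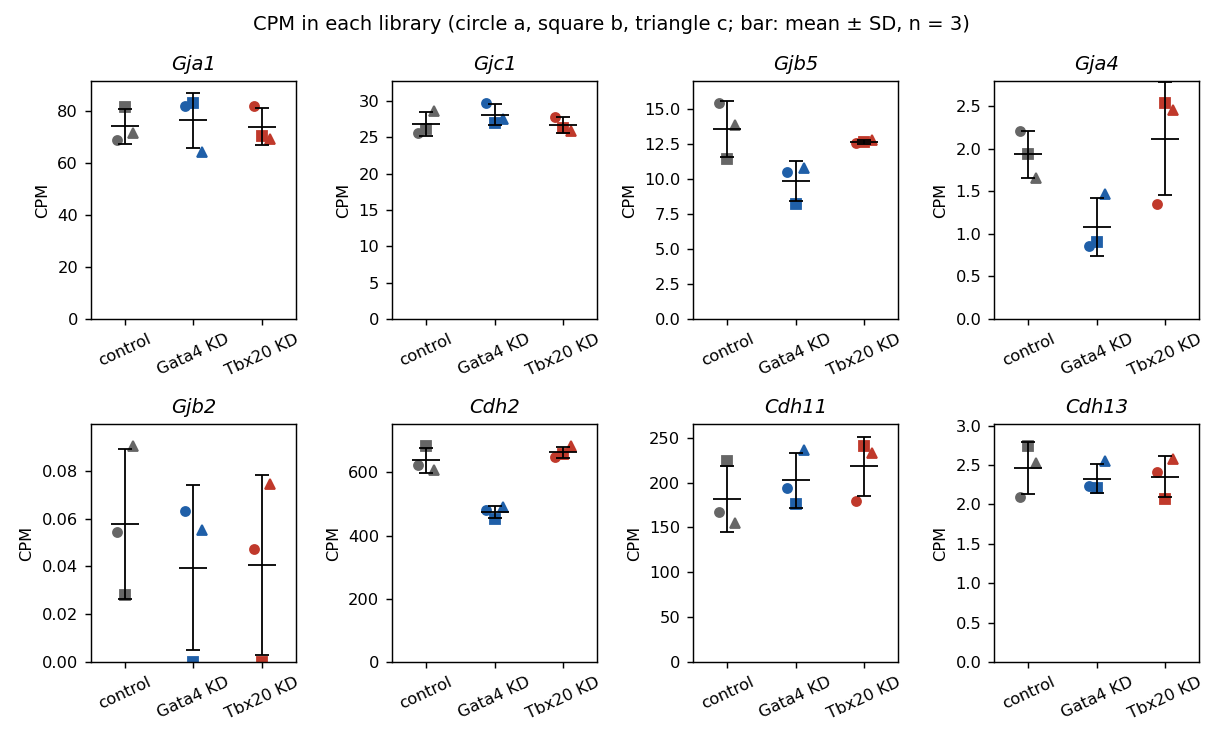
CPM of the 8 members in each library of control (grey), Gata4 KD (blue) and Tbx20 KD (red), with the mean and SD of each group and a separate vertical axis from 0 for each gene. For Cdh2 the 3 Gata4 KD libraries, at 453 to 490 CPM, sit below the other 6, at 607 to 683 CPM, whereas for Gja1, Gjc1, Cdh11 and Cdh13 the 3 groups overlap.

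Cdh11, the second cadherin of these cells, did not show the pattern of Cdh2. It lies on the minus strand of chromosome 8 (102632095 to 102785642) and had 166.6, 224.0 and 155.0 CPM in control, 194.2, 176.6 and 236.0 CPM in Gata4 KD and 179.9, 240.8 and 232.9 CPM in Tbx20 KD. The spread within each group was as wide as the differences between them. The log2 fold change was 0.15 (SE 0.16, 95% interval -0.21 to 0.52) in Gata4 KD and 0.27 (SE 0.16, 95% interval -0.10 to 0.64) in Tbx20 KD against control, and -0.11 (SE 0.14, 95% interval -0.43 to 0.22) between the knockdowns, with adjusted p of 0.853, 0.9997 and 0.744 in edgeR.

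The ratio of Cdh2 to Cdh11 in counts per kilobase was 3.94 ± 0.505 in control (range 3.37 to 4.32; SD, n = 3), 2.62 ± 0.286 in Gata4 KD (2.29 to 2.83) and 3.41 ± 0.506 in Tbx20 KD (3.02 to 3.98). Mean Cdh2 was lower and mean Cdh11 higher in Gata4 KD than in control, and both means were higher in Tbx20 KD. As the levels of Cdh2 enter this ratio, it is a description and was given no test. Cdh11 took 17.8% to 21.7% of the cadherin level in the control libraries, 24.7% to 28.5% in Gata4 KD and 19.2% to 23.6% in Tbx20 KD.

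Cdh13, on the plus strand of chromosome 8 (118283733 to 119324921), was scarce, with 66 to 104 counts per library. It had 2.10, 2.74 and 2.53 CPM in control, 2.24, 2.202 and 2.54 CPM in Gata4 KD and 2.41, 2.07 and 2.58 CPM in Tbx20 KD, and all groups overlapped. Its log2 fold changes were -0.08 (95% interval -0.50 to 0.35) in Gata4 KD and -0.05 (-0.46 to 0.36) in Tbx20 KD against control and -0.02 (-0.37 to 0.33) between the knockdowns, and differences of 0.33 on the log2 scale lie inside all of these intervals.

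Gja1 and Gjc1, the connexins usually described in cardiac fibroblasts, had similar levels in all groups. Gja1, on the plus strand of chromosome 10 (56377330 to 56402513), had 68.96, 81.56 and 71.62 CPM in control, 81.70, 83.17 and 64.17 CPM in Gata4 KD and 82.05, 70.16 and 69.31 CPM in Tbx20 KD. The highest and the lowest Gja1 values were both Gata4 KD libraries. Its log2 fold change was 0.04 (SE 0.12, 95% interval -0.23 to 0.31) in Gata4 KD and 0.01 (SE 0.10, 95% interval -0.22 to 0.24) in Tbx20 KD against control, and 0.05 (95% interval -0.22 to 0.31) between the knockdowns.

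Gjc1, on the minus strand of chromosome 11 (102799579 to 102819700), was the steadiest member, with a coefficient of variation of 5.16% over all 9 libraries. It had 25.60, 26.16 and 28.70 CPM in control, 29.79, 27.00 and 27.60 CPM in Gata4 KD and 27.88, 26.35 and 25.88 CPM in Tbx20 KD. The log2 fold changes were 0.07 (95% interval -0.13 to 0.27), 0.01 (-0.18 to 0.19) and 0.07 (-0.07 to 0.22) in the same order, so no interval reached beyond 0.271 on the log2 scale.

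Gja4 (127311421 to 127314039) and Gjb5 (127354809 to 127358181) both lie on the minus strand of chromosome 4, with 40770 bases between them. Gja4 (connexin 37) is known from endothelial cells of arteries, and Gjb5 from skin and placenta.

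The 250 bases before the RefSeq start (GRCm38.p6) of Gja1, Gja4 and Gjb5 are shown because these are the member connexins with a start in the promoter table that were expressed. In Gata4 KD the values of Gja4 and Gjb5 lay below control without passing the threshold, and those of Gja1 overlapped with control. The sequences read 5′ to 3′ on the strand of the gene, and capitals mark the letters that GATA factors are known to read (AGATAA, or the same with T as its first or G as its last letter, on either strand).
Gja1 (chr10:56377050-56377299, plus strand): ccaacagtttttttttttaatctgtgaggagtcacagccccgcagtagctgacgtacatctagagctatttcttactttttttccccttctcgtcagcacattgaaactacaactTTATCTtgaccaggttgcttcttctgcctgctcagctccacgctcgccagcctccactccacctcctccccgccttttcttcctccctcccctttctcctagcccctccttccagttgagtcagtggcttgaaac
Gja4 (chr4:127314040-127314289, minus strand): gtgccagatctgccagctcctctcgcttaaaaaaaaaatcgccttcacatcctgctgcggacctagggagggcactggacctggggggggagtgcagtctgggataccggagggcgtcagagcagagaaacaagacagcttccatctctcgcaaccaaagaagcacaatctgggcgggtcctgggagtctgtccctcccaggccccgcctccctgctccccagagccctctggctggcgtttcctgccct
Gjb5 (chr4:127358165-127358414, minus strand): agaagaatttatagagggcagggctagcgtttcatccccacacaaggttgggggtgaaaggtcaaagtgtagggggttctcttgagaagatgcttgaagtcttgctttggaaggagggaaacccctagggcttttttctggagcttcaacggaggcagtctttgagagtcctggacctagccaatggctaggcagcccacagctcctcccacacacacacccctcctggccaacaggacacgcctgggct

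Gja1 held 1 such match, 135 to 130 bases before the start on the opposite strand, and Gja4 and Gjb5 held none. Of 32851 promoters of the same length 26.5% held at least 1 match. The letters AGGTGT, a core read by T-box factors, occurred on either strand in 11.8% of promoters and in none of the 3 shown. Among the members Gjb2 held a T-box match, 8 to 3 bases before its start, and no GATA match. A match is a description of letters, not a bound site, and the 4 other members (Gjc1, Cdh2, Cdh11 and Cdh13) were not analysed here.

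Gja4 had 2.203, 1.93 and 1.66 CPM in control, 0.85, 0.91 and 1.47 CPM in Gata4 KD and 1.35, 2.54 and 2.45 CPM in Tbx20 KD, on 27 to 99 counts per library. The Gata4 KD libraries were all below control, but Gata4 KD replicate c lay above Tbx20 KD replicate a. The log2 fold change was -0.84 (SE 0.27, 95% interval -1.46 to -0.22, adjusted p 0.382 in edgeR) in Gata4 KD against control, 0.13 (SE 0.26, adjusted p 0.9997) in Tbx20 KD against control and -0.96 (SE 0.32, 95% interval -1.71 to -0.21, adjusted p 0.193) in Gata4 KD against Tbx20 KD. None passed the threshold. The exact test with a common dispersion called both Gata4 KD comparisons (adjusted p 0.0137 and 0.000106).

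Gjb5 had 15.42, 11.39 and 13.82 CPM in control, 10.49, 8.17 and 10.76 CPM in Gata4 KD and 12.51, 12.60 and 12.79 CPM in Tbx20 KD. Each Gata4 KD library was below every other library, though Gata4 KD replicate c and control replicate b differed by less than 1 CPM. The log2 fold change was -0.47 (SE 0.15, 95% interval -0.82 to -0.11, adjusted p 0.398 in edgeR) in Gata4 KD and -0.09 (SE 0.12, adjusted p 0.9997) in Tbx20 KD against control, and -0.37 (SE 0.11, 95% interval -0.63 to -0.10, adjusted p 0.168) between the knockdowns. The threshold was passed in none of the alternatives.

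Gjb2 (connexin 26), on the minus strand of chromosome 14 (57098600 to 57104702), was at the limit of detection. It had 2, 1 and 3 counts in the control libraries, 2, 0 and 2 in Gata4 KD and 2, 0 and 3 in Tbx20 KD. A count of 0 allows up to 0.0828 CPM in Gata4 KD replicate b and 0.0961 CPM in Tbx20 KD replicate b. These limits stand for 3 counts, cover counting error only and use the total counts without TMM factors. At this depth no difference between groups was detectable. Its neighbours Gjb6 and Gja3, 18601 and 40500 bases away, were at most 0.0275 and 0.346 CPM.

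The comparisons address how expression in these cells differed when each factor was lowered. Between the knockdowns both factors differed, with log2 fold changes of -1.77 for Gata4 and 0.84 for Tbx20 (adjusted p 0.0013 and 0.109 in edgeR). In Gata4 KD against control 0 of the 7 members tested passed an adjusted p of 0.05 with edgeR's quasi-likelihood test, where 0.38% of 14468 genes did, and 3 (Gja4, Gjb5 and Cdh2) had an unadjusted p under 0.05, as did 8.54% of all genes tested. DESeq2, which called 1.89% of all genes, and the exact test with tagwise dispersions called Cdh2 alone. The exact test with a common dispersion called Gja4 alone, and limma-voom called 0. The share of all genes called is not given here for the exact tests. Gjb2 had too few counts to be tested in any comparison. In Tbx20 KD against control 0 of 7 passed, where 0.00687% of 14547 genes did, 0 had an unadjusted p under 0.05 beside 2.69% of all genes, and DESeq2, limma-voom and both exact tests called 0. Tbx20 itself did not pass there in edgeR (adjusted p 0.748), so these counts do not show that the members were unchanged. Between the knockdowns 1 of 7 passed (Cdh2), where 1.44% of 14477 genes did. There 3 members had an unadjusted p under 0.05, beside 16.7% of all genes, and DESeq2 called 1 member and 5.7% of all genes.

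Of the members tested, 3 (Gja4, Gjb5 and Cdh2) had all Gata4 KD libraries below all control libraries, a pattern found at 7.62% of the genes tested. Against Tbx20 KD 2 did (Gjb5 and Cdh2), beside 10.8% of genes. In Tbx20 KD 0 members lay wholly below control, beside 3.93% of genes. The median log2 fold change of the 7 members was -0.08 in Gata4 KD and 0.01 in Tbx20 KD against control and -0.11 between the knockdowns, beside -0.02, -0.00 and -0.01 over all genes tested. Both comparisons with control used the same control libraries.

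**Figure D3:**
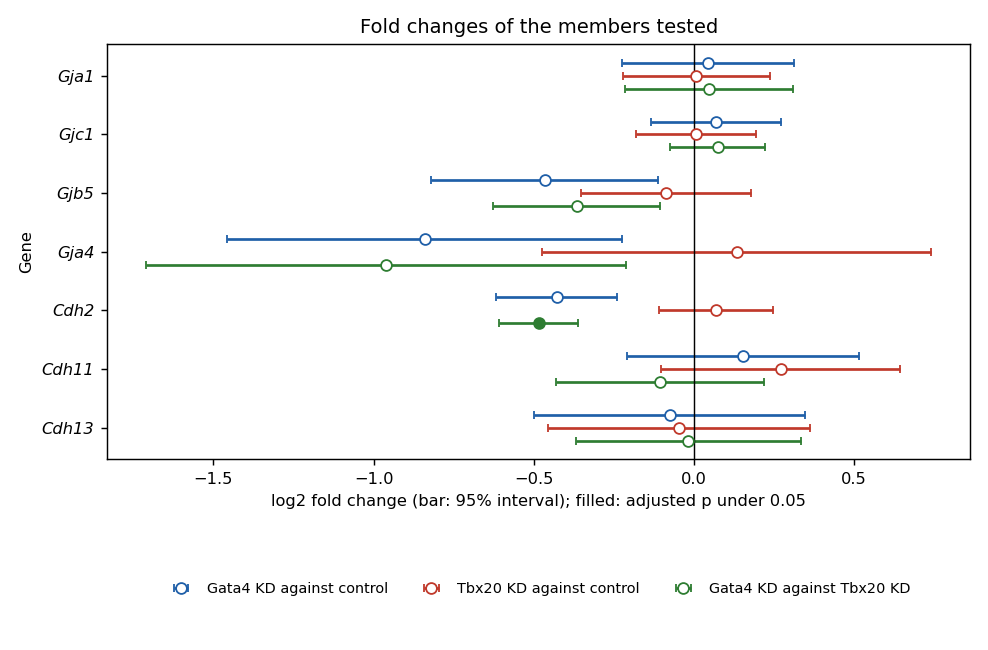
Log2 fold change of the 7 members tested, with 95% intervals, in Gata4 KD against control (blue), Tbx20 KD against control (red) and Gata4 KD against Tbx20 KD (green). The filled point, Cdh2 at -0.49 between the knockdowns, is the value with an adjusted p under 0.05, and the Tbx20 KD intervals all include 0.

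The rest of the cadherin family held 1 more call. Of 23 cadherins 13 were tested, and between the knockdowns Cdh2 and Cdh3, both lower in Gata4 KD, passed the threshold, where 1.44% of all genes did. There 5 of the 13 had an unadjusted p under 0.05, beside 16.7% of all genes. Cdh3 (P-cadherin, chromosome 8, 106510891 to 106557297) had 5.71, 5.57 and 5.90 CPM in control, 3.62, 2.64 and 3.54 CPM in Gata4 KD and 5.51, 6.33 and 6.25 CPM in Tbx20 KD. As with Cdh2, all Gata4 KD libraries lay below the others. Cdh3 changed by -0.88 on the log2 scale (SE 0.15, adjusted p 0.0406 in edgeR) against Tbx20 KD and -0.81 (SE 0.16, adjusted p 0.112) against control. The call was lost when Gata4 KD replicate a or b or any Tbx20 KD replicate was left out, with adjusted p of 0.0734 to 0.19, and with the replicate letter as a block (0.0908). In Gata4 KD and Tbx20 KD against control 0 of the 13 cadherins passed in edgeR, with 2 and 1 at an unadjusted p under 0.05 beside 8.54% and 2.69% of all genes, and DESeq2 called 2 and 0 beside 1.89% and 0.0688% of all genes.

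Of 20 connexins 8 were tested. In edgeR 0 passed in Gata4 KD or Tbx20 KD against control or between the knockdowns, where 0.38%, 0.00687% and 1.44% of all genes did. The numbers with an unadjusted p under 0.05 were 3, 1 and 3 in Gata4 KD against control, Tbx20 KD against control and Gata4 KD against Tbx20 KD, beside 8.54%, 2.69% and 16.7% of all genes. The median log2 fold change of the 8 was -0.44, -0.04 and -0.07 in the same order.

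Partners of these proteins were followed in a list of 40 genes of pannexins, catenins and other adherens junction proteins, gap junction partners, desmosome genes and regulators of the cadherin switch, of which 33 were tested. Between the knockdowns 1 passed, where 1.44% of all genes did. There 8 of the 33 had an unadjusted p under 0.05, beside 16.7% of all genes. Nectin1, an adhesion receptor of adherens junctions on chromosome 9 (43743984 to 43807461), had 36.21, 32.85 and 37.41 CPM in control, 47.62, 45.02 and 46.77 CPM in Gata4 KD and 36.68, 33.15 and 36.04 CPM in Tbx20 KD. Every Gata4 KD library lay above all others, the reverse of Cdh2. Nectin1 differed by 0.40 on the log2 scale (SE 0.06, adjusted p 0.0258 in edgeR) from Tbx20 KD and by 0.39 (SE 0.08, adjusted p 0.139) from control. It fell short of the threshold when Gata4 KD library a or b or any Tbx20 KD library was removed, with adjusted p of 0.0512 to 0.141. Against control 0 partners passed in either knockdown in edgeR, with 4 and 2 of 33 at an unadjusted p under 0.05 beside 8.54% and 2.69% of all genes, and DESeq2 called 2 and 0 beside 1.89% and 0.0688%.

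The catenins with the highest levels in control differed little in their means. Jup (plakoglobin), of the same list, had lower values in Gata4 KD and is given below. In control the highest per kilobase were Ctnnb1 (beta-catenin) at 113, Ctnnd1 (p120-catenin) at 86.7 and Ctnna1 (alpha-catenin) at 69.8 CPM per kilobase, beside 79.1 for Cdh2. Their log2 fold changes in Gata4 KD against control were -0.01 (SE 0.07), 0.08 (SE 0.07) and 0.04 (SE 0.08). In Tbx20 KD they were 0.03, 0.02 and -0.02. Ctnnd1 lay higher in every Gata4 KD library (662.7 to 684.8 CPM) than in control (612.5 to 648.3 CPM) or Tbx20 KD (615.9 to 657.9 CPM).

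Jup (plakoglobin), which serves both adherens junctions and desmosomes, was the highest desmosome gene and had lower values in Gata4 KD. It had 80.71, 69.81 and 76.56 CPM in control, 46.67, 42.57 and 56.87 CPM in Gata4 KD and 63.18, 71.13 and 75.33 CPM in Tbx20 KD, without overlap between Gata4 KD and the others. The log2 fold change was -0.64 (SE 0.12, adjusted p 0.0888 in edgeR) against control and -0.52 (SE 0.11, adjusted p 0.0815) against Tbx20 KD, so neither passed. DESeq2 called both (adjusted p 0.000381 and 0.00138). Pkp4 and Pkp1, plakophilins next in level, had log2 fold changes of -0.06 and 0.27 in Gata4 KD and -0.08 and -0.49 in Tbx20 KD, and none passed.

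**Figure D4:**
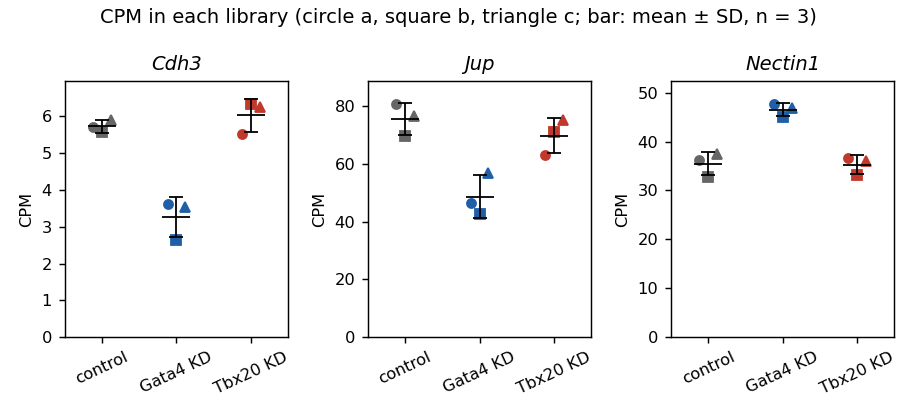
CPM of Cdh3, Jup and Nectin1 in each library of control (grey), Gata4 KD (blue) and Tbx20 KD (red), with the mean and SD of each group and axes from 0. Gata4 KD libraries lie below all others for Cdh3 (2.64 to 3.62 CPM) and Jup (42.6 to 56.9 CPM) and above all others for Nectin1 (45.0 to 47.6 CPM).

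Among regulators of the switch between epithelial and mesenchymal cadherins, Snai1, Snai2 and Zeb2 were the highest in control at 28.3, 23.3 and 13.2 CPM per kilobase. Their log2 fold changes were 0.32 (SE 0.14), 0.08 (SE 0.11) and 0.18 (SE 0.12) in Gata4 KD and 0.23 (SE 0.11), -0.05 (SE 0.11) and -0.01 (SE 0.12) in Tbx20 KD against control, and none passed. Of the gap junction partners, Cav1 (caveolin 1), Csnk1d (a casein kinase) and Dbn1 (drebrin) were highest, and their log2 fold changes against control lay between -0.13 and 0.11. Panx1, a channel protein related in shape but not in sequence to connexins, was at 4.60 CPM per kilobase in control with a log2 fold change of -0.14 (SE 0.09) in Gata4 KD and 0.04 (SE 0.09) in Tbx20 KD. Panx2 and Panx3 did not exceed 0.0744 CPM.

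Over the 9 libraries some members varied together. Pearson's r of log2 CPM was 0.83 for Cdh2 and Gja4, 0.74 for Cdh2 and Gjb5 and 0.73 for Gja4 and Gjb5, and -0.73 for Gja4 and Gjc1. These values describe 9 libraries in 3 groups, so differences between the groups enter them. Among 10030 genes with a mean of at least 5 CPM, those most like Cdh2 were Pcyt1a (r = 0.984), Ndst3 (0.978) and Spg20 (0.977). Those most like Gja1 were Mpp6 (0.974), Gtpbp4 (0.973) and Ncl (0.970), and those most like Gjc1 were Bcl10 (0.949), Id1 (0.908) and Zbed3 (0.899). Gja4 was followed most closely by Entpd4 (0.974), Sil1 (0.964) and Panx1 (0.964), Gjb5 by Pak4 (0.970), Pgm1 (0.968) and Chid1 (0.960), Cdh11 by Socs2 (0.982), Pcdhb17 (0.977) and Pdcd4 (0.970), and Cdh13 by Kif3a (0.839), Phactr4 (0.831) and Kdm4c (0.819). The number of genes with r over 0.9 was 95 for Cdh2 and 0 for Cdh13, so the names nearest to Cdh2 are a few of many.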

How the data were processed

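Bulk RNA of 9 cultures was sequenced as 75 base single-end reads. After quality trimming and Bowtie2 alignment, the authors deposited expected counts per gene estimated by RSEM, as whole numbers that were not normalized. Their methods name GRCm38, while the submitters' processing notes name mm9. Coordinates here come from GENCODE M21 on GRCm38. Of 38924 gene IDs 96.6% had a symbol. RSEM divides reads shared between genes, but of the connexins and cadherins only Gja5 shared over 1% of its 75 base windows with another gene. Replicates of a group differed by more than sampling noise (a chi-square of 6.20 or more for each degree of freedom).

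For each comparison its 6 libraries entered a model of edgeR 4.0.16 under R 4.3.3 (filterByExpr, TMM factors, quasi-likelihood F test, no covariate), with Benjamini-Hochberg adjustment over all genes tested and a threshold of 0.05. Alternatives were DESeq2 1.42.0, limma-voom (limma 3.58.1), exact tests with tagwise or common dispersion, library size alone, no filter on low counts, CPM above 1 in at least 2 libraries, a joint fit of all 9 libraries, a block for the replicate letter and leaving out each library. The longest transcript as gene length for levels was added after the data were seen. The fit was also run on simulated counts with 200 genes changed by 2-fold. That outcome is not reported here, and it would not cover smaller differences such as that of Cdh2. Total counts of 31214828 to 41950397 per library set the precision, and floors of 3 counts cover counting error only. The members and gene lists were chosen with earlier results of these data known. Named are the members, the targets, list genes past the threshold, the 3 highest of each list, connexins within 200 kb of a member (some of these and of the 3 highest are not reported here) and the 3 genes most correlated with each member.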

Additional observations from a re-analysis of the deposited data

Results flagged for a closer look

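Cdh2, Cdh3 and Nectin1 differed between the knockdowns when these were compared directly with edgeR's quasi-likelihood test over 14477 genes. Cdh2 had a log2 fold change of -0.49 (adjusted p 0.00912) and Cdh3 one of -0.88 (adjusted p 0.0406) in Gata4 KD against Tbx20 KD, and Nectin1 one of 0.40 (adjusted p 0.0258). In all of them the Gata4 KD libraries stood apart from both other groups in 3 of 3 libraries. The calls of Cdh3 and Nectin1 held without 1 of the 6 libraries (Gata4 KD replicate c) and that of Cdh2 without 3 (Gata4 KD replicate b or c, or Tbx20 KD replicate a). With the replicate letter as a block Cdh3 had an adjusted p of 0.0908, and Cdh2 (0.0363) and Nectin1 (0.0465) still passed.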

How the results depend on the processing

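The direction of Cdh2, Gja4 and Gjb5 in Gata4 KD held under every alternative run, against control and against Tbx20 KD. Calls did not. Members called in Gata4 KD against control numbered 1 in place of 0 under DESeq2, both exact tests and the fit of all 9 libraries, cadherins 2 under DESeq2, the tagwise exact test and that fit and 1 under the common dispersion, and partners 2 under all 4 of these and 1 with no filter. The member was Gja4 under the common dispersion and Cdh2 under the others. DESeq2 called 1.89% of all genes there and 5.7% between the knockdowns, and no such share is given for the other alternatives. Between the knockdowns the common dispersion called 2 members, 2 connexins and 4 cadherins, and partners numbered 7 (DESeq2), 2 (no filter), 5 (tagwise) and 6 (common). It also called 1 connexin in Gata4 KD and 1 partner in Tbx20 KD against control. Without 1 library, calls between the knockdowns ranged from 0 to 1 for members, 0 to 3 for cadherins and 0 to 5 for partners, and in Gata4 KD against control 0 to 1 for partners. Deviations of libraries with the same letter correlated at -0.17 to 0.255, and those with different letters at -0.385 to 0.347. With 3 libraries per group these values cannot decide whether the letters pair the libraries. With the replicate block 1 cadherin was called between the knockdowns in place of 2, as Cdh3 had an adjusted p of 0.0908.

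Signs turned only for values near 0. In Tbx20 KD against control they turned in the fit of all 9 libraries for Gja1 (-0.004), Gjc1 (-0.006) and Nectin1 (-0.007), and for Nectin1 under the CPM filter (-0.001). The cause was not tested. Leaving out 1 library turned 20 more values of single genes, with ranges, in Gata4 KD against control, of -0.022 to 0.179 for Gja1 and -0.18 to 0.012 for Cdh13. In Tbx20 KD against control the ranges were -0.076 to 0.09 for Gja1, -0.017 to 0.379 for Gja4, -0.193 to 0.01 for Gjb5, -0.033 to 0.059 for Gjc1, -0.156 to 0.049 for Cdh13 and -0.041 to 0.046 for Nectin1. Between the knockdowns they were -0.019 to 0.153 for Gja1 and -0.1 to 0.052 for Cdh13. The Cdh2 and Cdh11 share differed between Tbx20 KD and control by -0.2034 to 0.2778 percentage points, negative without Tbx20 KD replicate a or control replicate b.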
